A study of Mus musculus with 6 samples.

Results

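The 8 genes described here encode filament, growth cone and growth factor receptor proteins of sympathetic ganglion neurons. They are Prph, Nefl, Nefm, Nefh, Gap43, Stmn2, Uchl1 and Ret, taken by symbol from a table of 54532 genes, and all 8 passed the filter on low counts. The set was chosen by what these genes do in neurons and by the measured counts of Prph, whose level differed more than 30-fold between libraries of the same group, so the spread of Prph is given as a description without a test. The question asked of the other 7 genes was which of them vary with Prph from library to library. RNA came from whole mouse adrenal glands, in 3 samples labelled VEGF/LysM and 3 labelled WT, and the series set these groups against each other to learn what VEGF-A made by macrophages does for the gland. The labels name no allele, promoter, strain, age or sex for either group. Nor do they tie replicates to separate animals, so a p here reflects how far these samples differ among themselves, whether for technical or other reasons.

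The adrenal medulla is built from chromaffin cells, which share a neural crest origin with sympathetic neurons, and ganglion neurons are scattered among them. Neurons fill their axons with intermediate filaments. In peripheral neurons these are built from peripherin (Prph) together with the light, medium and heavy neurofilament chains (Nefl, Nefm, Nefh). Gap43 is a membrane protein of growth cones, Stmn2 regulates microtubules in growing axons, and Uchl1 is an abundant deubiquitinating enzyme of neurons and neuroendocrine cells. Ret is the receptor tyrosine kinase for the GDNF family of growth factors, which bind it together with GFRA coreceptors.

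Library totals ran from 16476879 to 18671950 counts. WT replicate 3 carried liver, kidney and lymphocyte transcripts, with Alb, the serum albumin gene, at a CPM (counts scaled to a common library total, here without TMM) of 39910. VEGF/LysM replicate 3 had 174 CPM of Alb, and no other library had more than 1.09. Correlations of the 7 other genes with Prph are therefore also given without these libraries. In whole glands, fewer cells of a type and less RNA per cell cannot be told apart.

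The promoters of Prph and Uchl1 are shown as those of the 8 genes that the RefSeq table used here held. They belong to the genes with the widest spread between libraries (Prph) and the narrowest (Uchl1). Each stretch runs from 250 bases before the RefSeq start (position 0) through 50 bases from it on, on the plus strand of GRCm38.p6. The Prph stretch is chr15:99054924-99055223 and the Uchl1 stretch is chr5:66675871-66676170. Capitals mark the TATA box core TATAAA and the GC box GGGCGG on either strand.
Prph: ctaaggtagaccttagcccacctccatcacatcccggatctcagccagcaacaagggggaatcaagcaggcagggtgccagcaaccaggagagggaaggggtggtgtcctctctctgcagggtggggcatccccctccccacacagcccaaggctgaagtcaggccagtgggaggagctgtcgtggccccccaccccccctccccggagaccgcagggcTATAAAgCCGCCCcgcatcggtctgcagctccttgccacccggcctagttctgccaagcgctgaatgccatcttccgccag
Uchl1: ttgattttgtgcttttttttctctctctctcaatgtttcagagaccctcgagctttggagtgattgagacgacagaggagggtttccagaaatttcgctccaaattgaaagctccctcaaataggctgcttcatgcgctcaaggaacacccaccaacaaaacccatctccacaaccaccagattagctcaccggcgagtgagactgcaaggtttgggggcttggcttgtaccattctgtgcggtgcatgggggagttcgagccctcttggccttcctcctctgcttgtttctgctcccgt
TATAAA was found in Prph from position -31 to -26, and the complement of GGGCGG from -24 to -19. Neither was found in Uchl1. Over both strands, 13.6% of 32851 promoters of this length held TATAAA and 35.7% held GGGCGG. The full cyclic AMP element TGACGTCA (1.79% of promoters) and the E-box CANNTG (72.3%) were found in neither, and the homeodomain core ATTA (58.0%) was found once, in Uchl1. The Prph stretch was 64.7% G and C, the Uchl1 stretch 50.7%, and the median over all promoters was 52.7%. These matches describe letters, not bound sites.

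Peripherin transcripts differed 32.2-fold between libraries, and the light and medium neurofilament transcripts 20.7-fold and 16.9-fold. Prph (ENSMUSG00000023484, GRCm38 chromosome 15, 99055174 to 99058978, plus strand) stood at 2.70, 24.9 and 9.36 CPM in VEGF/LysM replicates 1 to 3, against 83.1, 2.58 and 59.8 CPM in WT replicates 1 to 3. WT replicates 1 and 3 were the highest, while WT replicate 2 and VEGF/LysM replicate 1 were nearly level at the bottom, so the groups overlapped. These CPM values are scaled by the TMM method, which corrects for differences in library make-up.

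Nefl, the light chain (ENSMUSG00000022055, chromosome 14, 68083863 to 68089095, plus strand), was at 0.938, 8.94 and 6.47 CPM in VEGF/LysM, against 19.4, 1.19 and 13.2 CPM in WT. Nefm, the medium chain (ENSMUSG00000022054, chromosome 14, 68082590 to 68124846, minus strand), had 2.76, 9.67 and 6.53 CPM in VEGF/LysM, against 27.9, 1.65 and 18.8 CPM in WT. Both genes had the same 2 highest and 2 lowest libraries as Prph. Their annotated exons share 1108 bases on opposite strands, and these libraries do not mark strand, so reads in that stretch cannot be told apart. Nefh, the heavy chain (ENSMUSG00000020396, chromosome 11, 4938754 to 4948064, minus strand), had 2.70, 6.57 and 5.94 CPM in VEGF/LysM, against 12.2, 3.92 and 10.8 CPM in WT. It ranked the libraries almost as Prph did but spanned 4.51-fold, compared with 20.7-fold for Nefl and 16.9-fold for Nefm.

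Of the growth genes, Gap43 spread less widely than Prph but more than Nefl and Nefm. Stmn2 spread less widely than all of these but more than Nefh. Gap43 (ENSMUSG00000047261, chromosome 16, 42248442 to 42340651, minus strand) had 0.879, 7.99 and 4.65 CPM in VEGF/LysM, against 20.2, 1.08 and 12.5 CPM in WT, a span of 23.0-fold. Stmn2 (ENSMUSG00000027500, chromosome 3, 8509360 to 8561606, plus strand) was at 11.1, 34.1 and 24.8 CPM in VEGF/LysM, against 82.2, 15.97 and 49.8 CPM in WT, a span of 7.38-fold. WT replicate 1 was again the highest and VEGF/LysM replicate 1 the lowest for each. At the level of counts, the lowest Gap43 library rested on 15 reads and the lowest Nefl library on 16, so those ends carry more counting error than the 190 reads of the lowest Stmn2 library.

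Ret and Uchl1 spread less than Prph, Nefl and Nefm. Ret (ENSMUSG00000030110, chromosome 6, 118151745 to 118197718, minus strand) had 3.87, 11.1 and 9.53 CPM in VEGF/LysM, against 24.1, 4.07 and 20.0 CPM in WT, a span of 6.22-fold. Uchl1 (ENSMUSG00000029223, chromosome 5, 66676091 to 66687234, plus strand) was at 49.2, 77.5 and 70.1 CPM in VEGF/LysM, against 197, 51.3 and 77.3 CPM in WT. WT replicate 1 alone stood apart for Uchl1, and WT replicate 3, second highest for the other 7 genes, was level with VEGF/LysM replicate 2. The antisense gene Uchl1os shares 295 exon bases with Uchl1 but had at most 5 counts in any library.

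**Figure D1:**
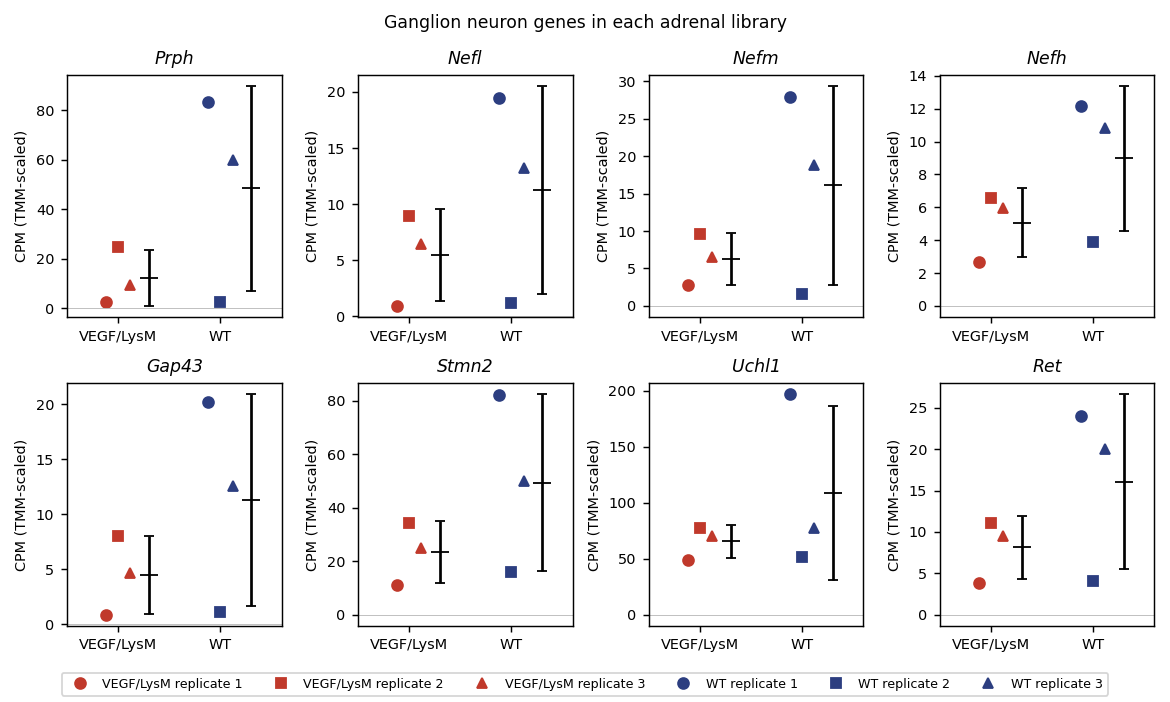
TMM-scaled CPM (linear axes, 1 panel per gene) in each library, VEGF/LysM in red on the left and WT in blue on the right, with marker shapes for replicates 1 to 3 and black bars for mean and SD (n = 3). In all 8 panels WT replicate 1 is the highest point, and WT replicate 2 lies within or below the VEGF/LysM values.

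Compared per kilobase of annotated exon, Uchl1 was the most abundant of the 8 genes and the neurofilament chains and Ret the least. Uchl1 averaged 53.4 ± 33.9 CPM per kb (SD, n = 6 libraries) and exceeded Prph, the next gene, in 6 of 6 libraries. Prph averaged 15.2 ± 16.8 CPM per kb and Stmn2 6.49 ± 4.70, and Prph was the higher of this pair in 4 of 6 libraries. Gap43 followed at 5.18 ± 4.91 CPM per kb, below Stmn2 and above Nefl in 6 of 6 libraries. Nefl (2.48 ± 2.12), Nefm (1.94 ± 1.77), Ret (1.79 ± 1.23) and Nefh (1.76 ± 0.942) closed the order. Within this last set, neighbouring genes differed by less than the spread between libraries, and their order changed from library to library.

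The proportions among the genes were not constant. The Nefl count was 34.8%, 35.9% and 69.2% of the Prph count in VEGF/LysM replicates 1 to 3, against 23.4%, 46.0% and 22.1% in WT replicates 1 to 3. The Uchl1 count was 1824%, 312% and 749% of the Prph count in VEGF/LysM, against 237%, 1992% and 129% in WT. Uchl1 thus exceeded Prph most in the libraries where Prph was lowest. In those libraries, VEGF/LysM replicate 1 and WT replicate 2, Prph was at 3.25% and 3.10% of its CPM in WT replicate 1, while Nefh was at 22.2% and 32.2% and Uchl1 at 25% and 26.1%.

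All 7 other genes varied with Prph across the 6 libraries, 6 of them closely and Uchl1 more loosely. On the log2 CPM scale, Pearson's r with Prph was 0.989 for Ret, 0.986 for Gap43, 0.985 for Nefm, 0.973 for Stmn2, 0.968 for Nefl, 0.966 for Nefh and 0.833 for Uchl1. Of all 16299 other genes tested, 1.5% had an r of at least 0.9, against 6 of these 7. Spearman's rho was 1 for Nefm, 0.886 for Uchl1 and 0.943 for each of the other 5. By an exact permutation test over the 720 pairings of 6 libraries (two-sided, by the size of r), the unadjusted p was 0.00139 for Nefm, 0.00278 for Nefl, Gap43, Stmn2 and Ret, and 0.00556 for Nefh and Uchl1, for n = 6. For rho it was 0.00278 for Nefm, 0.0333 for Uchl1 and 0.0167 for the others (exact permutation).

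After Benjamini-Hochberg adjustment over all 16299 genes, no correlation with Prph passed, the smallest adjusted p of any gene being 0.453 for r and 0.571 for rho. For the 7 genes, the adjusted exact p was 0.453 or 0.455 for r and 0.571 for rho. The smallest p that 6 libraries allow is 0.00139. Unadjusted, 7 of the 7 genes had an exact p under 0.05 with r above 0, as did 3.6% of all genes compared. WT replicate 2 and VEGF/LysM replicate 1 lay farthest from the median of Prph. Without both, r over the remaining 4 libraries was 0.973 for Nefl, 0.980 for Nefm, 0.954 for Nefh, 0.983 for Gap43, 0.955 for Stmn2, 0.961 for Ret and 0.696 for Uchl1. With the mean of each group removed, r lay between 0.972 (Nefh) and 0.989 (Nefm) for these genes and at 0.806 for Uchl1.

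The relation was as close without the libraries that held liver transcripts. Without WT replicate 3, the lowest r of the 7 genes was 0.942 (Uchl1), and without WT replicate 3 and VEGF/LysM replicate 3 it was 0.943, in 4 libraries (an alternative chosen after the data were seen). Uchl1 was the gene that moved most: its r was 0.936 without WT replicate 1 and 0.789 without VEGF/LysM replicate 1. No sequencing batch is given in the labels, so no within-batch value could be had.

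How steeply a gene followed Prph separated the 7 more than r did. For each log2 unit of Prph, Gap43 moved by 0.82 log2 units, Nefl by 0.80 and Nefm by 0.71. Ret moved by 0.51, Stmn2 by 0.48, Nefh by 0.37 and Uchl1 by 0.28. The heavy chain therefore had a slope below that of the light and medium chains, although all are subunits of one filament. Among the 28 pairs of the 8 genes, 22 had an r of at least 0.9, from 0.995 for Nefl with Gap43. The lowest, 0.818, was that of Nefl with Uchl1, and the 6 pairs below 0.9 all included Uchl1.

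**Figure D2:**
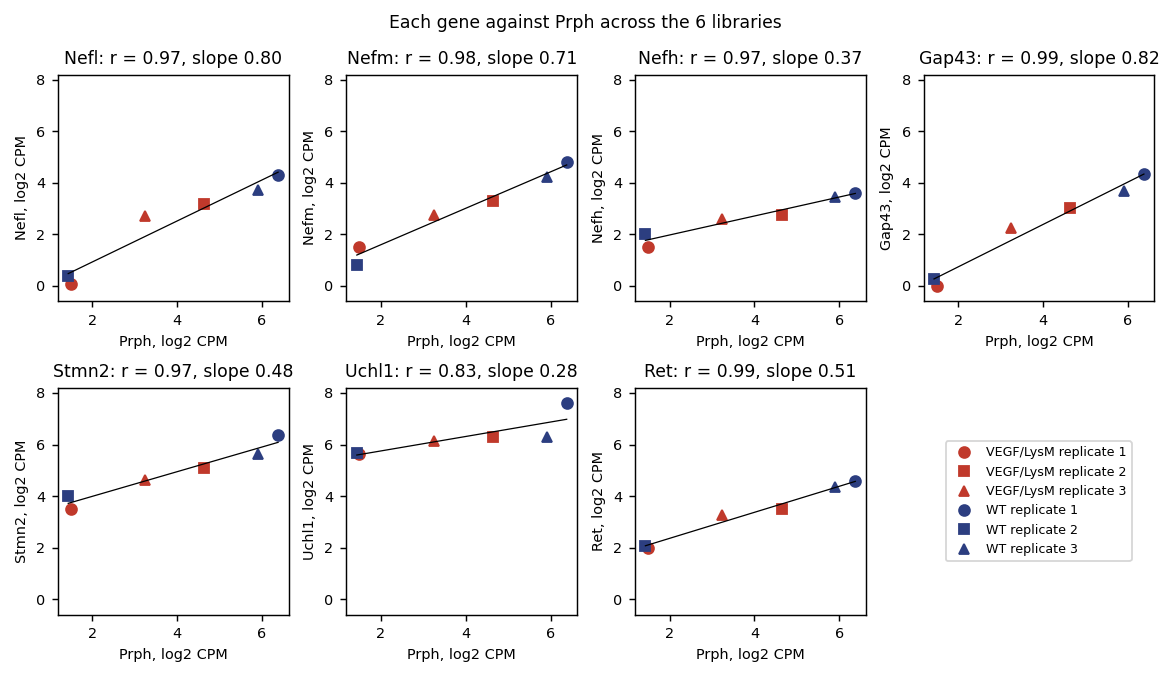
Log2 CPM of each gene (y axis) against log2 CPM of Prph (x axis) in the 6 libraries, with least-squares lines, VEGF/LysM in red and WT in blue. The y axes share 1 scale, so the slopes can be compared by eye, from 0.82 for Gap43 down to 0.28 for Uchl1.

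Over all 6 libraries together, the summed chromaffin cell transcripts did not follow the 8 genes. The 15 genes of the chromaffin list summed to 7441, 7610 and 11510 CPM in VEGF/LysM replicates 1 to 3, against 8993, 6949 and 4949 CPM in WT replicates 1 to 3. Their log2 sum had an r of -0.146 with Prph, and between -0.106 (Nefh) and 0.232 (Uchl1) with the other genes, over 6 libraries and as a description. WT replicate 3 thus had the lowest chromaffin sum and the second highest Prph, and VEGF/LysM replicate 3 had the highest sum. These are the libraries with liver transcripts. Among the other libraries, the chromaffin sum and Prph ranked alike, from WT replicate 2 at the bottom to WT replicate 1 at the top. How far the r of -0.146, or that of single chromaffin genes, depends on the libraries with liver transcripts was not tested. As a share of the chromaffin sum, Prph was 0.0362%, 0.327% and 0.0813% in VEGF/LysM, against 0.924%, 0.0371% and 1.21% in WT. With every gene divided by that sum, r with Prph ran from 0.912 (Uchl1) to 0.991. Both genes of each pair then share a divisor, which can raise r by itself, so these values are a description.

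Among the chromaffin genes, 2 of 15 had an r of at least 0.9 with Prph, and both are named after their values were seen. Slc6a2, the noradrenaline transporter, was at 7.45, 64.1 and 32.1 CPM in VEGF/LysM, against 136, 16.9 and 136 CPM in WT (r = 0.970). It spanned 18.2-fold, between the spans of Nefm and Nefl. Ddc, which makes dopamine, had an r of 0.975 but spanned only 2.52-fold, from 41.1 CPM in VEGF/LysM replicate 1 to 103 CPM in WT replicate 1. Th, the rate-limiting enzyme of catecholamine synthesis, had an r of 0.058 and Dbh, which makes noradrenaline, 0.159. The most abundant genes of the list, the granins Chgb and Chga, had -0.197 and -0.131. Without the libraries with liver transcripts, Th, Dbh and Chga ranked the libraries as Prph did, and Chgb did not.

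The 10 genes whose pattern was most like that of Prph, by Pearson's r over 6 libraries, were taken from 843 genes with a mean of at least 1 CPM and an SD of log2 CPM of at least 1. Ret, Gap43 and Nefm ranked 4, 5 and 6, and Stmn2 and Nefl ranked 19 and 21. Nefh and Uchl1 were not eligible, as their SDs were 0.82 and 0.72. The first was Tubb3, the neuronal beta tubulin, with r = 0.998, at 3.93, 33.8 and 15.01 CPM in VEGF/LysM, against 106, 4.74 and 69.9 CPM in WT. Chrm2, a muscarinic acetylcholine receptor (0.993), had 0 counts in VEGF/LysM replicate 1 and WT replicate 2. Ngfr, the p75 neurotrophin receptor (0.990), was at 8.27, 30.1 and 23.9 CPM in VEGF/LysM, against 72.6, 7.94 and 68.0 CPM in WT. The others were Cend1 and Olfm2 (both 0.984), Tubb2b, another beta tubulin (0.982), and Gria1, a glutamate receptor subunit (0.981).

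Other genes of axons and synapses ranged from a close match to none. Of 21 axon cytoskeleton genes tested, 7 had an r of at least 0.9 with Prph and the median r was 0.859, against -0.004 over all genes. Map1b and Kif1a, a microtubule-associated protein and a kinesin motor and the most abundant of the list, had 0.828 and 0.407. Ina, alpha-internexin, a further neuronal filament subunit, had r = 0.857 but spanned only 1.59-fold, at 7.56, 9.88 and 8.71 CPM in VEGF/LysM, against 12.1, 7.78 and 8.91 CPM in WT. Among 15 RNA-binding and synaptic genes, 7 had an r of at least 0.9 and the median was 0.863, while Vamp2 and Cplx2, of synaptic vesicle release, had 0.058 and 0.558. The extremes in span, named after their values were seen, were Sv2c, a vesicle protein, at 24.2-fold and Elavl2, a neuronal RNA-binding protein, at 17.8-fold.

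Receptors and regulators split in a different way. Of 13 tested neurotrophic receptors and ligands (15 listed), Ngfr was among those with an r of at least 0.9, and the list's median was -0.023. The most abundant, Ntrk2, the BDNF receptor, had -0.130. The coreceptors of Ret did not share its pattern, with r of 0.458 for Gfra1, 0.254 for Gfra2, -0.070 for Gfra3 and -0.075 for Gfra4. Gfra1 stood at 99.8 CPM in WT replicate 3 and at 2.35 to 5.18 CPM elsewhere, so its value rested on the library with liver transcripts. None of 10 sympathoadrenal transcription factors reached 0.9 (median 0.278), with 0.463 for Hand2 and -0.139 for Gata2. None of the 6 nicotinic receptor subunits did either (median 0.538), with 0.798 for Chrna3 and 0.043 for Chrna4. These r values include the libraries with liver transcripts, and how far they depend on those was not tested. In WT replicate 2, VEGF/LysM replicates 1 and 2 and WT replicate 1, from lowest to highest Prph, Hand2 rose at each step. It stood at 54.5, 55.5, 69.3 and 100 CPM. Gata2, at 48.4, 54.2, 49.6 and 61.8 CPM in that order, did not.

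Chat and several listed genes of pain-sensing neurons were at or near 0. Of 12 autonomic transmitter genes, 4 were tested and none had an r of at least 0.9 (median -0.203). Npy, a peptide of sympathetic neurons and chromaffin cells, had 0.404 and Gal, a neuropeptide, 0.056. Chat, which makes acetylcholine, had 0 counts in all 6 libraries. Of 7 sensory neuron genes in the table, 3 were tested. The nociceptor channel genes Scn10a and Scn11a averaged 0.0554 and 0.117 CPM, and Mrgprd and Prdm12 had 0 counts in every library. Trpv1, a heat and capsaicin channel, had an r of -0.123, while Avil, an actin-binding protein, had 0.975 and was at 0.879, 6.05 and 3.83 CPM in VEGF/LysM, against 21.2, 1.91 and 16 CPM in WT.

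**Figure D3:**
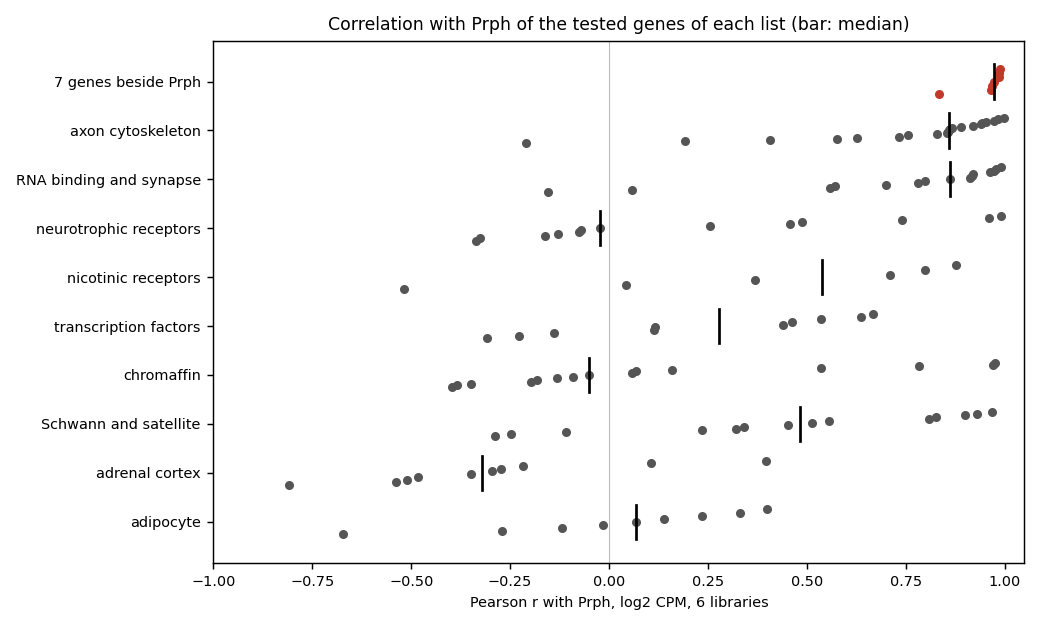
Pearson's r with Prph (x axis, log2 CPM, 6 libraries) of each tested gene, 1 point per gene and 1 row per list drawn, with a black bar at the median. The autonomic transmitter, sensory neuron, lymphocyte, hepatocyte, kidney tubule, and muscle and vessel wall lists are not drawn. The 7 genes in red lie between 0.833 and 0.989, while the medians of the chromaffin (-0.051), cortex (-0.321) and adipocyte (0.069) genes lie near or below 0, with Ddc (0.975) and Slc6a2 (0.970) of the chromaffin list among the red genes' values.

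Markers of other cell types moved with Prph in part, and their role in the result was not tested. Schwann and satellite genes summed to 213 to 273 CPM in VEGF/LysM and 253 to 328 CPM in WT, and the median r of the 14 tested was 0.482. Their log2 sum had an r of 0.895 with Prph, over 6 libraries and as a description. Fabp7, a fatty acid binding protein of glia named after its value was seen, had 0.931 and spanned 22.3-fold. Sox10, the lineage factor of glia, had 0.512, and the abundant myelin genes Pmp22 and Mbp had -0.248 and 0.810. Lymphocyte genes summed to 73.7 to 157 CPM in VEGF/LysM and 155 to 1532 CPM in WT, with none of 10 at 0.9 or above (median 0.374) and an r of 0.710 for the log2 sum. The immunoglobulin genes Igkc and Ighm had 0.894 and 0.709.

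In the other lists no tested gene reached an r of 0.9. The median was -0.321 over 10 adrenal cortex genes (Star -0.539, Cyp21a1 -0.295), whose sums were 45720 to 55440 CPM in VEGF/LysM and 29610 to 51880 CPM in WT. It was 0.069 over 9 adipocyte genes (Cfd 0.400, Fabp4 -0.015), which summed to 2782 to 5919 CPM in VEGF/LysM and 3999 to 5267 CPM in WT. Over 6 genes of muscle and vessel wall it was 0.498 (Acta2 0.572, Myl9 0.482), with sums of 71.6 to 120 CPM in VEGF/LysM and 127 to 209 CPM in WT. Hepatocyte genes summed to 136 to 927 CPM in VEGF/LysM and 220 to 81660 CPM in WT, with a median r of 0.484 over 5 genes (Alb 0.330, Cyp2e1 0.581). Of the kidney tubule genes, which summed to 0.293 to 2.77 CPM in VEGF/LysM and 0.626 to 36.1 CPM in WT, Lrp2 was the 1 tested and had 0.524.

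Between the groups, none of the 8 genes differed beyond the spread of the replicates. Prph averaged 12.3 ± 11.4 CPM in VEGF/LysM and 48.5 ± 41.4 CPM in WT (SD, n = 3 each), a log2 fold change (VEGF/LysM minus WT) of -1.97 ± 1.18 (SE). Its 95% interval ran from -4.77 to 0.82, which holds a large fall, no change and a moderate rise. Nefm averaged 6.32 ± 3.46 CPM in VEGF/LysM and 16.1 ± 13.3 CPM in WT, a log2 fold change of -1.35 ± 0.91, which was -0.68 without WT replicate 1. Uchl1 averaged 65.6 ± 14.7 CPM in VEGF/LysM and 108.5 ± 77.7 CPM in WT, with the smallest change at -0.73 ± 0.48.

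edgeR's quasi-likelihood test called 0 of the 8 genes at an adjusted p of 0.05 (adjusted p = 0.999 for each), and 0% of the 16300 genes tested. At an unadjusted p under 0.05 it found 0 of the 8, against 2.82% of all genes. By DESeq2 and by limma-voom the 8 genes gave 0 calls, and 0 at an unadjusted p under 0.05. With the mean log2 CPM of the chromaffin genes as a covariate, edgeR's test also gave 0 calls. In that setting 1 of the 8 had an unadjusted p under 0.05, against 1.25% of all genes. The log2 fold change was below 0 for 8 of 8 genes, against 49.7% of all genes, with a median of -1.06 against 0.0010 over all genes. As the 8 genes rise and fall together by library, they amount to 1 pattern rather than 8 observations. In none of them did the 3 VEGF/LysM values lie clear of the 3 WT values, as they did for 5.95% of all genes. WT replicate 2 was at the low end for each gene. Without it, 6 of the 8 genes had an unadjusted p under 0.05 in edgeR's test, as did 7.6% of all 16833 genes then tested. None of the 8 passed over all genes (smallest adjusted p = 0.656). With any other single library left out, 0 of the 8 had an unadjusted p under 0.05 in that test, against 0.845% to 5.4% of all genes.

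**Figure D4:**
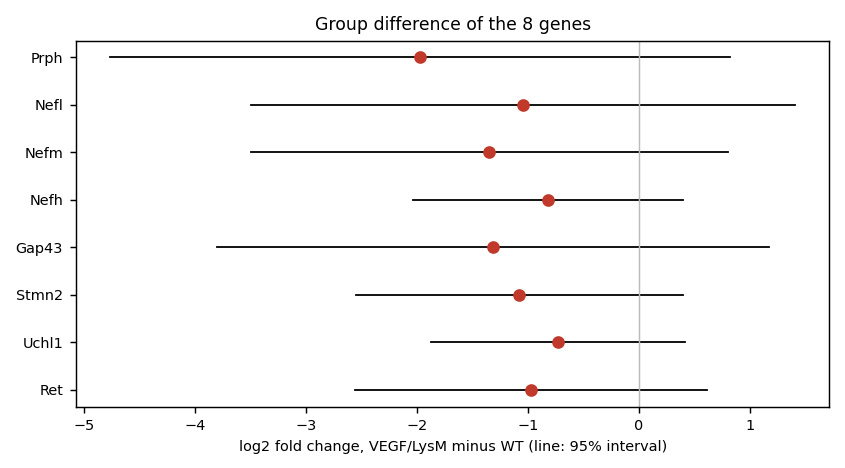
Log2 fold change (x axis, VEGF/LysM minus WT) of the 8 genes from edgeR's fit over all genes, with lines for the 95% interval. Each point is below 0, from -1.97 for Prph to -0.73 for Uchl1, and each interval includes 0.

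Related gene lists gave no call in either direction, at 0% called over all genes. Log2 fold changes were below 0 for 19 of 21 axon cytoskeleton genes (median -0.42), 13 of 15 RNA-binding and synaptic genes (-0.22), 8 of 13 neurotrophic genes (-0.14), 4 of 6 nicotinic subunits (-0.13) and 11 of 14 Schwann and satellite genes (-0.12). They were above 0 for 11 of 15 chromaffin genes (0.23), 8 of 10 transcription factors (0.18), 3 of 4 transmitter genes (0.20) and 10 of 10 cortex genes (0.20). In the remaining lists they were below 0 for 10 of 10 lymphocyte, 5 of 5 hepatocyte, 1 of 1 kidney, 5 of 6 muscle and vessel wall, 5 of 9 adipocyte and 2 of 3 sensory neuron genes. WT replicate 3 had the lowest chromaffin, transcription factor, transmitter and cortex sums (cortex 29610 CPM, against 45720 to 55440 CPM in the other libraries). It had the highest lymphocyte, hepatocyte, kidney, and muscle and vessel wall sums. How far these directions depend on WT replicate 3 was not tested. Tubb3 had a log2 fold change of -1.78 ± 1.09 (SE), Ngfr -1.25 ± 0.80 and Slc6a2 -1.47 ± 0.92, each with an adjusted p of 0.999 in edgeR's test. Th had 0.32 ± 0.31 and Chga 0.34 ± 0.32, with the same adjusted p in that test.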

How the data were processed

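Whole adrenal gland RNA was sequenced after Smart-seq2 library preparation, which does not mark strand, per the labels' protocols. kallisto, DESeq2 1.36.0 and build mm10 are named in the submitters' processing notes without their roles, and no annotation is named. The deposited table holds unnormalised whole-number counts per gene, as its values show. Columns were matched to samples by title.

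edgeR 4.0.16 (R 4.3.3) filtered genes (filterByExpr, minimum count 10, minimum total 15; 16300 kept), scaled by TMM and ran the quasi-likelihood test on group alone, with Benjamini-Hochberg adjustment over all genes tested. Intervals come from that fit. Log2 CPM for correlations used a prior count of 2. Exon lengths and coordinates are from GENCODE for GRCm38, promoters from RefSeq (2 of 8 genes had one). DESeq2 1.42.0 and limma 3.58.1 were alternatives. The steps were tested on simulated data.

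The 8 genes and 16 lists were chosen with earlier results of these data known. Genes named from a list are its 2 most abundant tested genes, partners of the 8 genes and, where said, genes chosen after their values were seen. Some list genes are not reported here.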

Additional observations from a re-analysis of the deposited data

How the results depend on the processing

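None of the 8 genes was called between VEGF/LysM and WT in any of 16 other settings, which changed scaling, filter, tool, covariate or libraries. The direction held in all of them for 7 genes, and Uchl1 turned to a log2 fold change of 0.032 without WT replicate 1, its range with 1 library left out being -1.06 to 0.032. Prph ranged from -3.03 (without VEGF/LysM replicate 2) to -1.29 (limma-voom), Nefm from -1.88 to -0.66, Gap43 from -2.05 to -0.58, Nefl from -1.63 to -0.38, Stmn2 from -1.50 to -0.49, Ret from -1.43 to -0.55 and Nefh from -1.18 to -0.53. Over all genes, leaving out 1 library gave 0 to 1 calls, the 1 without WT replicate 3. At an unadjusted p under 0.05 edgeR found 459 genes, DESeq2 542 and limma-voom 224. All 7 genes had an exact permutation p under 0.05 for r with Prph under other scalings, and 6 to 7 did with 1 library left out. Those that missed it were Uchl1 without VEGF/LysM replicate 1 (r = 0.789), WT replicate 1 (0.936) or WT replicate 2 (0.803), and Nefl without VEGF/LysM replicate 2 (0.967); the cause was not tested, beyond there being 5 libraries. Deviations of same-numbered replicates had an r of 0.064, -0.014 and 0.25, the last between the libraries with liver transcripts, so not every pair passed 0.1, and VEGF/LysM replicate 1 correlated best with WT replicate 2 (0.319). With the replicate block 0 genes were called, and the 8 log2 fold changes ran from -2.02 to -0.49. The lowest libraries of Gap43 and Nefl, with 15 and 16 counts, limit how well their spans are known.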
